A study of Mus musculus with 19 samples.

Results

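Crypts of the small intestine were compared between 5 wild-type mice fasted for 48 hours and 5 wild-type mice fed ad libitum, 10 of the 19 mice whose crypt RNA was sequenced. The mice were chosen by their titles, NT+/+ Fast-1 to Fast-5 and NT+/+ AL-1 to AL-5, where AL stands for ad libitum. All 10 were C57BL/6 mice, and by title both copies of the neurotensin gene (Nts) were intact. Each group held 3 female mice (replicates 1, 2, and 4) and 2 male mice (replicates 3 and 5), and mice in the fasting experiments were 10 to 16 weeks old. Fasted mice had water only, starting in the morning, and the controls were littermates of the same sex and age on standard chow. The other mice, which lacked Nts, were 4 NT-/- mice fed ad libitum and 5 NT-/- mice fasted for 48 hours, and they entered only the estimate of the spread between mice and a comparison of the fasting effect between genotypes. The labels disagree for 1 mouse, whose title gives NT+/+ Fast-5 and whose genotype label gives NT-/-, and it was kept with its title. Its Nts level was 5.43 CPM, which are counts scaled to a common library size, against 4.98 to 5.71 CPM over the fasted NT+/+ group and 0.144 to 0.793 CPM over the 9 NT-/- mice.

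Several features limit what the groups can show. Crypts were released with EDTA from the small intestine without its most distal part and not sorted. Each library therefore holds stem cells, dividing progenitors, Paneth, goblet, tuft, and enteroendocrine cells, and absorptive enterocytes in unknown proportions. Throughout, fewer cells of a type and less RNA per cell of that type cannot be told apart. The study describes its wild-type and Nts-deficient mice as Lgr5-EGFP reporter mice and also lists lines without the reporter, and the labels of the sequenced mice name none. The hour at which the ad libitum–fed mice were killed is not given in the sources used here.

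The small intestinal epithelium is renewed from stem cells at the crypt base, whose daughters divide in the crypt and then mature as they move onto the villus. It is also a site where nutrients are absorbed and packaged, so both its fuel and its workload depend on meals. When food is withdrawn, insulin falls, glucocorticoids rise, and fat stores release fatty acids, which are oxidized in mitochondria and peroxisomes and activate the nuclear receptors of the peroxisome proliferator-activated receptor (PPAR) family. In the crypt, PPAR target genes, fatty acid oxidation, and ketone body synthesis have been tied to stem cell function.

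The total expected count per mouse ranged from 14588953 to 24048202 over the 10 NT+/+ mice, with no difference between diets past the spread between mice (two-sided exact permutation test, p = 0.175), and likewise for the number of genes detected (exact permutation p = 0.492). The library of AL-1 stood apart, with 13.1% of its counts on ribosomal RNA genes against 0.454% to 2.10% in the other 9 mice. In a principal component analysis of the 10 mice, the first component, with 33.6% of the variance, separated the diets, and the second, with 17.3%, set AL-1 and Fast-1 apart from the rest. Counts that rest on AL-1 are therefore given with and without it where it matters. The general epithelial markers Epcam, Vil1, Cdx2, and their like summed to 6732 to 7937 CPM in the ad libitum–fed mice and 6872 to 8295 CPM in the fasted mice, whereas markers of stroma, muscle, endothelium, and glia summed to at most 21.6 CPM in any mouse.

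Of 17875 genes tested, 3862 (21.6%) passed a Benjamini-Hochberg adjusted p of 0.05 in the quasi-likelihood test of edgeR. Of all genes tested, 2010 (11.2%) were higher and 1852 (10.4%) were lower in fasted crypts, and these shares are the background for each group described below. Among the 13535 protein-coding genes tested, the class of most list members, 1803 were higher and 1730 lower, 26.1% in all. A list of such genes therefore stands against a somewhat larger share than that of all genes. Most changes were small: 2287 of the 3862 genes (59.2%) differed by less than 1.5-fold, while 497 rose and 199 fell at least 2-fold, and 96 rose and 36 fell at least 4-fold. The median was a 1.51-fold rise among the genes that rose and a 1.36-fold fall among those that fell, and the median log2 fold change of all genes tested was −0.01. In 3639 of the 3862 genes (94.2%) the difference had the same sign in all 5 pairs of same-numbered mice, as in 38.7% of all genes tested. The genes that rose took 11.8% of all CPM in ad libitum–fed crypts and 17.8% in fasted crypts. The genes that fell went from 14.7% to 10.3%. The fit without AL-1 called 3274 genes, the fit with Fast-5 grouped by its genotype label called 3850, and a fit with the replicate number as a block, within NT+/+ mice, called 5426.

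**Figure D1:**
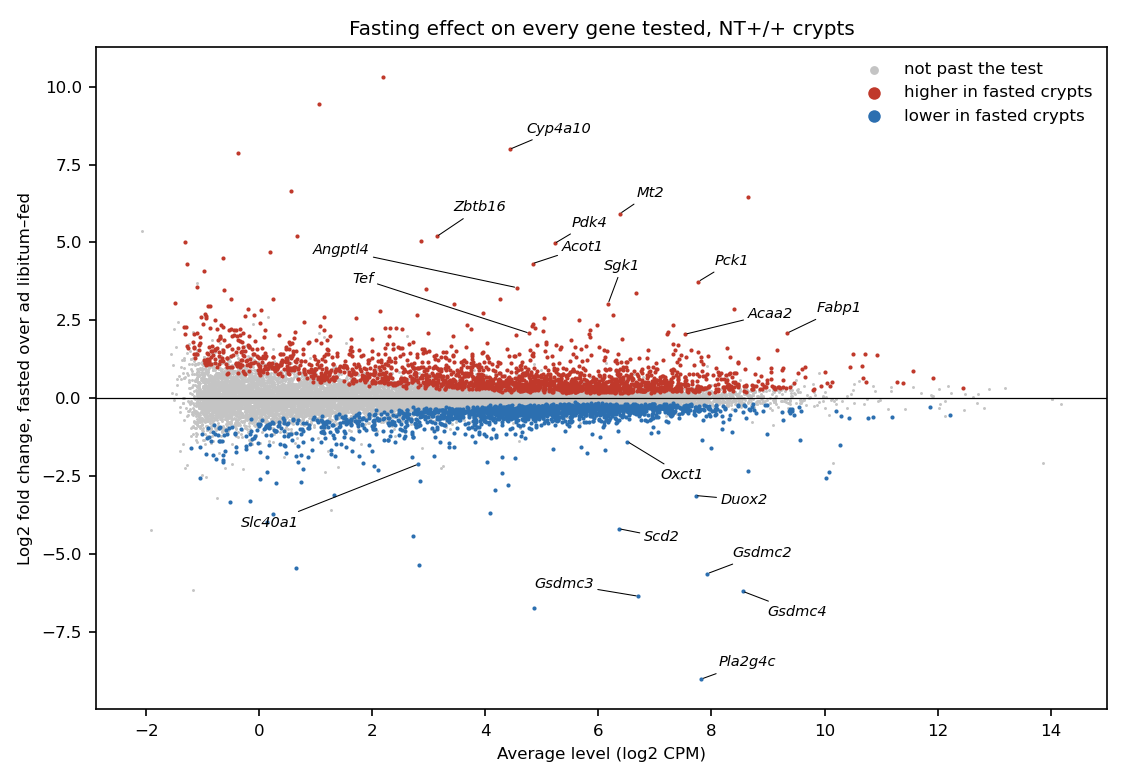
Log2 fold change of each of the 17875 genes tested (vertical axis, fasted over ad libitum–fed NT+/+ crypts) against its average level (horizontal axis, log2 CPM). Grey points are genes that did not pass an adjusted p of 0.05, red points the 2010 that were higher, and blue points the 1852 that were lower, with named genes labelled. Labelled genes far above 0 include Cyp4a10, Mt2, and Pdk4, and labelled genes far below 0 include Pla2g4c, the gasdermin C genes, and Scd2.

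Values per mouse below are CPM in the order of replicates 1 to 5 of each group, fold changes are log2 values ± their standard error, and adjusted p values are edgeR's over all 17875 genes. Members of a list were counted as risen or fallen only when they passed that test. The 2 largest fitted rises were those of Gm45234 (4.09 to 13.8 CPM in fasted mice) and Fam177a (0 to 13.2 CPM), which were listed at 0 in all 5 ad libitum–fed mice and have no fold change to read. Fam177a lost its call without any 1 of AL-1 to AL-5 and Fast-1 to Fast-3, with an adjusted p of 0.0532 to 0.0959.

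The markers of absorptive enterocytes, the mature cells that take up nutrients, were higher in fasted crypts. Of 18 markers, 14 rose and 0 fell (median log2 fold change, 0.98). Their summed level was 6755 to 13632 CPM in the ad libitum–fed mice and 13884 to 26808 CPM in the fasted mice. Every fasted mouse lay above every ad libitum–fed mouse, by little in Fast-1 (13884 CPM) against AL-4 (13632 CPM). AL-1 had the lowest sum, and without it 12 markers rose. Not all markers moved alike. Fabp1 and Fabp2, which carry fatty acids in the enterocyte cytoplasm, and Rbp2, which carries retinol, rose by 2.09 ± 0.23, 1.43 ± 0.24, and 1.55 ± 0.21 on the log2 scale, while the disaccharidases Sis (sucrase-isomaltase, 0.35, adjusted p = 0.163, 0.0276 with the replicate block) and Lct (lactase, 0.45, adjusted p = 0.271, 0.0342 with the replicate block) did not pass the test, nor did Krt20, a keratin of mature cells (0.34, adjusted p = 0.274). Since several of these markers are also genes of fat transport, the sum stands beside the groups of metabolic and transport genes below, and its part in those results was not tested. As a description chosen after the values were seen, each gene was also divided by the enterocyte sum of the same mouse: of all genes tested, 1363 had all 5 fasted mice above all 5 ad libitum–fed mice in CPM and 69 had them above in that ratio, while 1245 had them below in CPM and 6461 (36.1%) in the ratio. Since the enterocyte sum was higher in every fasted mouse, this ratio lowers each gene in the fasted mice, so the number above could only shrink and the number below only grow.

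The markers of the other crypt cell types changed in few members. Of the stem cell list, 2 rose and 2 fell of 19: Igfbp4 (log2 fold change 0.63 ± 0.16, edgeR adjusted p = 0.00772) and Znrf3 (log2 fold change 0.44 ± 0.12, edgeR adjusted p = 0.0106) were higher, and Prom1 (log2 fold change −0.54 ± 0.12, edgeR adjusted p = 0.00383) and Olfm4 (log2 fold change −0.63 ± 0.21, edgeR adjusted p = 0.0322) were lower. The call of Olfm4 was lost without AL-3, AL-5, Fast-2, Fast-3, or Fast-4, with only the NT+/+ mice in the fit, and with sex as a covariate, with an adjusted p of 0.0510 to 0.0976. Lgr5, the marker of active stem cells, did not pass the test (0.29, adjusted p = 0.287). With the replicate block, 4 rose and 3 fell. Among markers of the reserve and regenerative state, only Clu rose of 8 tested, and Bmi1 (−0.21, adjusted p = 0.137) did not pass the test. Clu, an extracellular chaperone found in crypts that regenerate after damage, was at 1.82, 0.667, 1.92, 1.93, and 1.498 CPM in the ad libitum–fed mice and 4.75, 5.25, 11.5, 10.8, and 4.31 CPM in the fasted mice. The groups did not overlap (log2 fold change 2.24 ± 0.36, edgeR adjusted p = 0.000189), and the level stayed low in absolute terms. With the replicate block, 2 markers of this list rose and 1 fell.

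Goblet cells secrete mucus, and 1 of 14 of their markers rose and 2 fell. Agr2, a protein disulfide isomerase needed to fold mucins, was at 575, 363, 481, 342, and 337 CPM in the ad libitum–fed mice and 236, 181, 235, 162, and 234 CPM in the fasted mice and lower in every fasted mouse (log2 fold change −1.001 ± 0.16, edgeR adjusted p = 0.000252). Zg16, a lectin of the mucus layer, was higher (565 ± 193 to 1076 ± 171 CPM; log2 fold change 0.93 ± 0.23, edgeR adjusted p = 0.00648), whereas the mucin gene Muc2 itself did not pass the test (−0.33, adjusted p = 0.201, 0.0497 with the replicate block). Among Paneth cell markers, 1 of 15 rose (Guca2b, described below with ion and water transport) and 2 fell. Mptx2, a pentraxin of Paneth cells, went from 704 ± 220.1 to 318 ± 87.3 CPM (log2 fold change −1.15 ± 0.30, edgeR adjusted p = 0.00932), and lysozyme (Lyz1) did not pass the test (0.13, adjusted p = 0.801). The alpha-defensins, antimicrobial peptides of Paneth cells whose near-identical copies share reads, summed to 23683 to 43660.5 CPM in the ad libitum–fed mice and 27283 to 46916 CPM in the fasted mice, and 1 of 21 rose and 1 fell, the fall being lost without AL-1, AL-5, Fast-2, or Fast-4. With the replicate block, 1 goblet cell marker rose and 4 fell, 4 Paneth cell markers rose and 3 fell, and 4 alpha-defensins rose and 2 fell.

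Of 22 enteroendocrine markers, 2 rose, the hormone gene Sst (log2 fold change 0.55 ± 0.12, edgeR adjusted p = 0.0033) and the granule protein gene Chga (log2 fold change 0.39 ± 0.12, edgeR adjusted p = 0.0212), and none of the lineage factors Neurog3, Neurod1, or Pax4 passed the test. Only 1 marker rose without AL-2, AL-5, Fast-3, or Fast-4, and 3 rose and 1 fell with the replicate block. None of the 14 tuft cell markers tested passed it either, although 1 rose without AL-1 and 1 with the replicate block. Their sum set 2 mice apart from the rest of both groups, at 558 CPM in AL-1 and 462 CPM in Fast-1, against 110 to 223 CPM in the other 8. No marker of T cells, B cells, stroma, erythroid cells, or pancreatic acinar cells passed the test, out of 14, 8, 11, 5, and 2 tested, whereas 6 T cell markers rose with the replicate block. In the myeloid list only Itgam fell (log2 fold change −0.83 ± 0.13, edgeR adjusted p = 0.000146), without a change past the test in Cd68, Csf1r, or Lyz2.

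**Figure D2:**
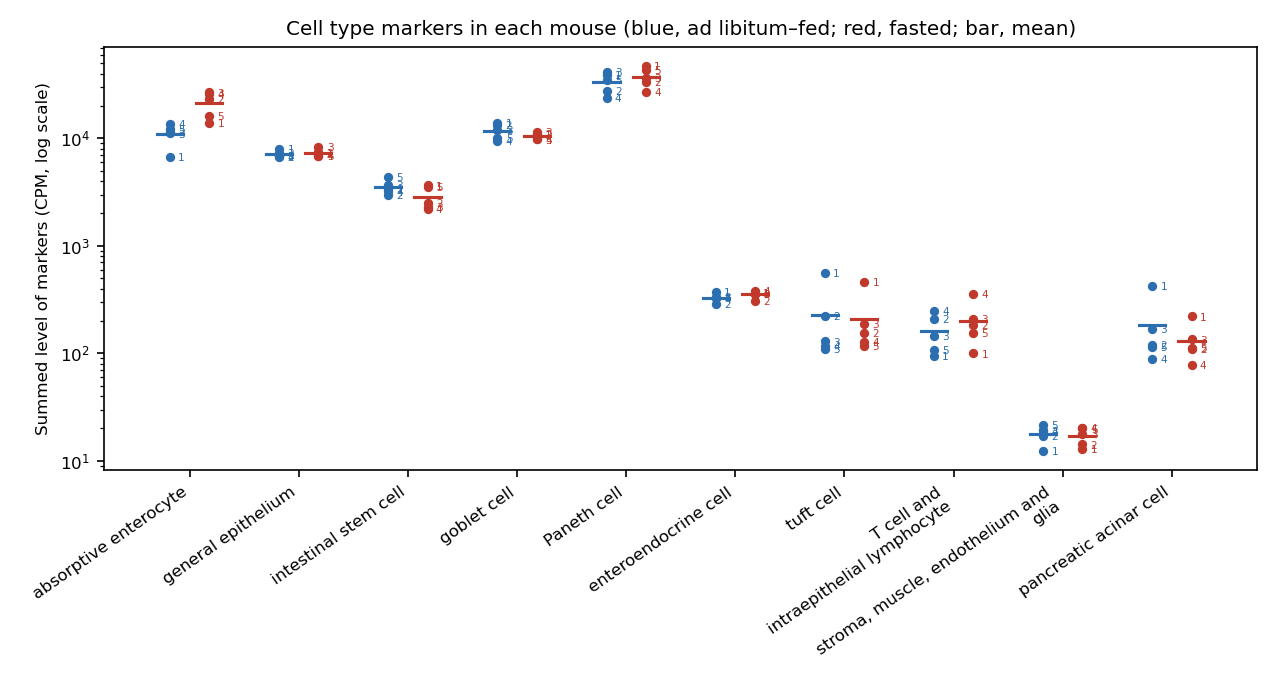
Summed CPM of the marker genes of each cell type (vertical axis, log scale) in each of the 10 NT+/+ mice, with ad libitum–fed mice in blue and fasted mice in red, the replicate number beside each point and a bar at the group mean. Only the enterocyte sum separates the groups, at 6755 to 13632 CPM against 13884 to 26808 CPM, and the tuft cell sum is high in replicate 1 of both groups.

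Genes of fatty acid oxidation were higher in fasted crypts almost without exception. Of 18 genes of the mitochondrial pathway, 16 rose and 0 fell, with a median log2 fold change of 0.72, and of 14 tested genes of peroxisomal and omega oxidation, 12 rose and 0 fell (median, 0.90). The smallest p in the mitochondrial list was that of Acaa2, the thiolase that cleaves the chain in the last step of each round and was at 62.1, 70.5, 62.6, 65.9, and 64.9 CPM in the ad libitum–fed mice and 262, 257, 272, 291, and 273 CPM in the fasted mice. The groups were far apart and the mice within each group were close together (log2 fold change 2.05 ± 0.09, edgeR adjusted p = 1.33e-11). Acadl, which starts the round on long chains, was at 52.3, 68.2, 55.2, 46.8, and 47.8 CPM in the ad libitum–fed mice and 241, 233, 199.7, 196, and 260.03 CPM in the fasted mice (log2 fold change 2.06 ± 0.13, edgeR adjusted p = 5.06e-09). The mitochondrial trifunctional protein (Hadha, 1.29; Hadhb, 1.19), the very long-chain dehydrogenase Acadvl (1.08), the carnitine shuttle (Cpt1a, 0.81; Cpt2, 0.48; Slc25a20, 1.65), and the electron transfer flavoproteins (Etfa, 0.43; Etfb, 0.74; Etfdh, 0.69) all passed the test and rose. Within the shuttle, the inner membrane carrier Slc25a20 rose more than the acyltransferases on either side of it, from 30.02 ± 5.01 to 94.2 ± 11.3 CPM. Echs1 (0.01, adjusted p = 0.918) and Eci1 (0.18, adjusted p = 0.0873, 0.0354 with the replicate block) were the members that did not pass the test.

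Peroxisomes shorten very long chains, and the microsomal Cyp4a enzymes hydroxylate the far end of a fatty acid. Cyp4a10 was almost absent from fed crypts, at 0, 0.133, 0.0661, 0.508, and 0.0483 CPM in the ad libitum–fed mice and 16.9, 43.7, 16.7, 65.4, and 59.5 CPM in the fasted mice. It rose in every fasted mouse (log2 fold change 7.99 ± 0.67, edgeR adjusted p = 1.22e-07), and because the fed level is close to 0 the size of the fold change is uncertain. Pex11a, which divides peroxisomes, was at 17.8, 24.4, 16.5, 20.5, and 17.98 CPM in the ad libitum–fed mice and 45.4, 50.9, 48.98, 52.4, and 49.6 CPM in the fasted mice (log2 fold change 1.34 ± 0.10, edgeR adjusted p = 1.67e-08). Hsd17b4, which carries out steps of peroxisomal oxidation, was higher by 1.06 ± 0.08, and the fatty acid importer Abcd3 by 0.85 ± 0.11.

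Other PPAR target genes rose as well. Of 19 tested, 17 rose and 0 fell, with a median log2 fold change of 1.43. Acot1, a thioesterase that releases fatty acids from coenzyme A, was at 1.68, 4.67, 2.51, 1.93, and 2.37 CPM in the ad libitum–fed mice and 55.3, 59.5, 35.04, 48.7, and 67.5 CPM in the fasted mice. The lowest fasted mouse lay far above AL-2, the highest fed mouse (log2 fold change 4.32 ± 0.25, edgeR adjusted p = 1.52e-09). Per transcript length, its level went from 3.91 to 67.1 TPM, a unit that corrects for library size and length. Its near-identical neighbour Acot2 rose as well (log2 fold change 3.18 ± 0.23, edgeR adjusted p = 1.67e-08), and reads of the pair can be divided between them only by RSEM's model. Angptl4, a secreted inhibitor of lipoprotein lipase, was at 0.864, 3.20, 3.04, 7.004, and 2.90 CPM in the ad libitum–fed mice and 39.2, 50.2, 37.2, 43.9, and 29.1 CPM in the fasted mice, without overlap (log2 fold change 3.55 ± 0.40, edgeR adjusted p = 4.78e-06). Mgll, which releases fatty acids from monoacylglycerol, rose by 2.34 ± 0.22, and the lipid droplet protein Plin2 by 0.49 ± 0.10. In the ratio to the enterocyte sum of the same mouse, all 5 fasted mice remained above the fed mice in 8 of the 14 PPAR target genes, and in 1 of the 16 genes of mitochondrial oxidation, that did not overlap in CPM. Over all genes tested, the fasted mice lay above in 1363 genes in CPM and in 69 in the ratio.

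Of 7 genes of ketone body synthesis and use tested, 3 rose and 2 fell. The summed level of the list was higher in every fasted mouse. It was 578 to 745 CPM in the ad libitum–fed mice and 1008 to 1464 CPM in the fasted mice. Slc16a6, a member of the monocarboxylate transporter family, rose (39.5 ± 7.07 to 73.1 ± 23.97 CPM; log2 fold change 0.89 ± 0.20, edgeR adjusted p = 0.00336) with overlap between the groups. Oxct1, the transferase that commits ketone bodies to oxidation (ENSMUSG00000022186, chromosome 15, 4026383–4155344 of GRCm38), was at 186, 139.8, 125, 107, and 101 CPM in the ad libitum–fed mice and 59.4, 50.6, 48.8, 36.8, and 54.9 CPM in the fasted mice. Fasted mice lay below all fed mice, by a factor of 2.63 in the fitted value (log2 fold change −1.39 ± 0.17, edgeR adjusted p = 1.14e-05). Bdh1, which interconverts the ketone bodies, also fell (132 ± 13.1 to 93.9 ± 16.99 CPM; log2 fold change −0.49 ± 0.11, edgeR adjusted p = 0.00346), and the thiolase Acat1 (0.01, adjusted p = 0.932) did not pass the test.

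The nuclear receptors themselves did not move together. Ppard, the PPAR form prominent in the intestine, was at 213, 166, 181, 173, and 169 CPM in the ad libitum–fed mice and 82.3, 73.5, 121, 81.6, and 67.4 CPM in the fasted mice and lower in all fasted mice (log2 fold change −1.08 ± 0.13, edgeR adjusted p = 7.93e-06). Pparg was at 5.33, 5.25, 4.95, 6.70, and 8.17 CPM in the ad libitum–fed mice and 14.2, 12.8, 14.1, 14.8, and 11.7 CPM in the fasted mice and higher in all fasted mice (log2 fold change 1.15 ± 0.15, edgeR adjusted p = 1.76e-05). Ppara rose (30.7 ± 3.17 to 44.997 ± 7.02 CPM; log2 fold change 0.55 ± 0.13, edgeR adjusted p = 0.00397), although Fast-3 lay within the fed range. Their partner Rxra rose by 0.49 ± 0.08, the coactivator gene Ppargc1a did not pass the test (0.11, adjusted p = 0.679), and Lpin1, a lipin that also acts as a coactivator, fell (33.8 ± 13.8 to 15.3 ± 3.50 CPM; log2 fold change −1.14 ± 0.24, edgeR adjusted p = 0.00193). In all, 7 of 21 nuclear receptors and coactivators rose and 3 fell.

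**Figure D3:**
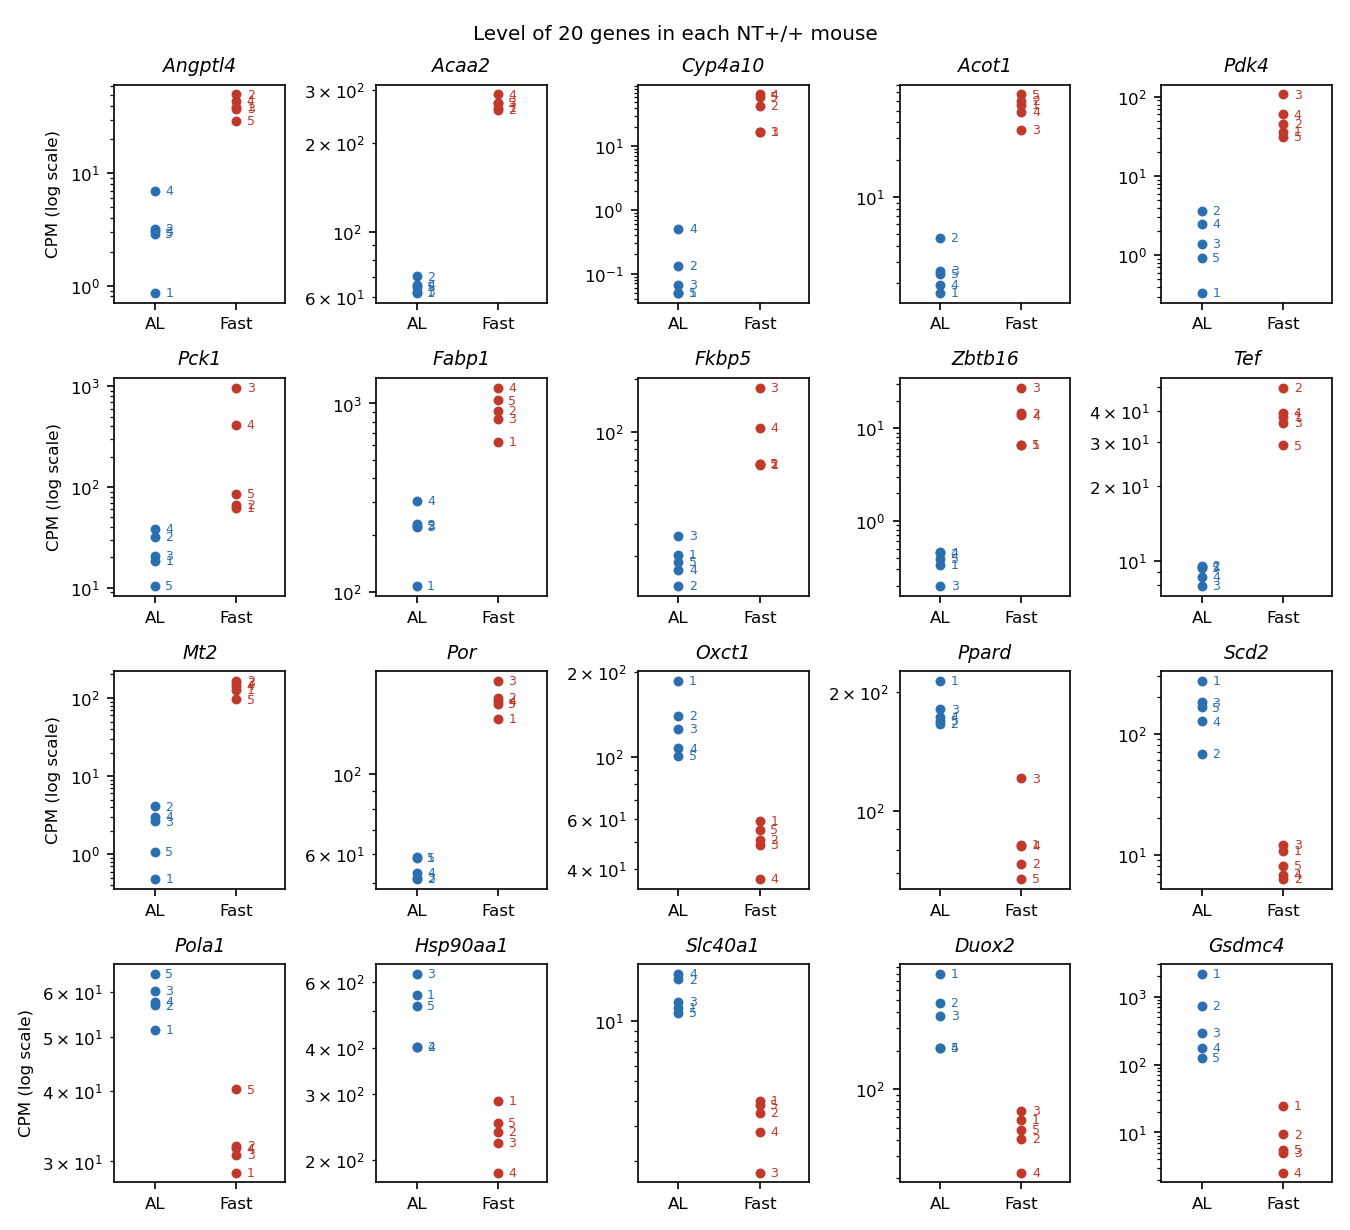
CPM (vertical axis, log scale) of 20 genes in each of the 10 NT+/+ mice, with ad libitum–fed mice in blue on the left and fasted mice in red on the right of each panel and the replicate number beside each point. Values below 0.05 CPM are drawn at 0.05. Acaa2, Pdk4, Acot1, and Tef are separated upward and Scd2, Oxct1, Ppard, and Duox2 downward, while Pck1 rose far more in Fast-3 and Fast-4 than in the other fasted mice.

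Pyruvate dehydrogenase admits carbohydrate carbon to the tricarboxylic acid (TCA) cycle. In the list of this enzyme and its kinases, 3 of 11 genes rose and 3 fell, with a log2 fold change above 0 in 8. Pdk4, a kinase that switches the enzyme off, was at 0.336, 3.65, 1.39, 2.49, and 0.918 CPM in the ad libitum–fed mice and 36.4, 45.4, 107, 59.9, and 30.9 CPM in the fasted mice. The groups did not overlap, and Fast-3 was the highest (log2 fold change 4.97 ± 0.46, edgeR adjusted p = 4.05e-07). Pdk2 rose by 0.56 ± 0.09, while the enzyme subunits Pdhb (log2 fold change −0.37 ± 0.06, edgeR adjusted p = 0.000493) and Dlat (log2 fold change −0.32 ± 0.08, edgeR adjusted p = 0.00562) and the pyruvate carrier subunit Mpc2 (log2 fold change −0.34 ± 0.07, edgeR adjusted p = 0.00166) fell. Of the 19 glycolysis genes tested, 2 rose and 3 fell. Hexokinase 2 (Hk2, log2 fold change −0.63 ± 0.14, edgeR adjusted p = 0.00405), lactate dehydrogenase A (Ldha, log2 fold change −0.42 ± 0.09, edgeR adjusted p = 0.00312), and Pgam1 (log2 fold change −0.37 ± 0.09, edgeR adjusted p = 0.00847) were lower. With the replicate block, 3 rose and 7 fell.

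Genes of gluconeogenesis were higher, 5 of 6, with none lower. Pck1, which turns oxaloacetate into phosphoenolpyruvate (ENSMUSG00000027513, chromosome 2, 173153048–173159273), was at 18.4, 31.8, 20.5, 38.1, and 10.4 CPM in the ad libitum–fed mice and 61.9, 66.1, 972, 414, and 85.7 CPM in the fasted mice. Fast-3 and Fast-4 were several times higher than the other fasted mice, and the lowest fasted mouse still lay above the highest fed mouse (log2 fold change 3.74 ± 0.68, edgeR adjusted p = 0.00062). Fbp1 was more even, at 11.8, 16.7, 12.4, 18.5, and 18.3 CPM in the ad libitum–fed mice and 52.4, 63.7, 47.7, 66.3, and 53.5 CPM in the fasted mice (log2 fold change 1.87 ± 0.14, edgeR adjusted p = 2.47e-08). The glucose 6-phosphate transporter Slc37a4 rose by 0.91 ± 0.12 and its partner enzyme G6pc by 1.65 ± 0.37, with 1 fasted mouse, Fast-5, inside the fed range for G6pc. Glud1, which feeds glutamate carbon to the TCA cycle, rose from 307 ± 12.1 to 501 ± 81.7 CPM (log2 fold change 0.71 ± 0.11, edgeR adjusted p = 0.000143).

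The TCA cycle itself changed little: 0 of 16 genes rose and 2 fell, and none fell without AL-1, Fast-2, or Fast-4. With the replicate block, 1 rose and 4 fell. Subunits of the respiratory chain encoded in the nucleus were slightly lower, with 2 of 74 higher and 22 lower and a median log2 fold change of −0.19. Uqcrb of complex III (log2 fold change −0.44 ± 0.07, edgeR adjusted p = 0.000134) and Ndufb6 of complex I (log2 fold change −0.57 ± 0.10, edgeR adjusted p = 0.000375) led these. Without AL-1, 14 fell, without Fast-4 the list's count of called genes was 15, the lowest over the mice left out, and with the replicate block 37 fell. Mitochondrially encoded mRNAs were lower in 5 of 13 (median, −0.53), with mt-Nd2 going from 2042 ± 348 to 1318 ± 151 CPM (log2 fold change −0.63 ± 0.14, edgeR adjusted p = 0.00389). Of the proteins of the mitochondrial ribosome, 24 of 78 fell and 1 rose (median, −0.19), and 37 fell with the replicate block. The count of mitochondrially encoded mRNAs that fell was 2 without AL-2 and 3 without AL-4 or Fast-3.

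Lipogenesis moved against oxidation in most of its called genes. Of 16 genes of fatty acid synthesis tested, 7 fell and 2 rose (median log2 fold change, −0.32). Without AL-1, 5 fell and 3 rose (median, −0.22). Scd2, a stearoyl-CoA desaturase that makes monounsaturated fat (ENSMUSG00000025203, chromosome 19, 44293674–44306864), was at 272, 68.2, 181, 126, and 164 CPM in the ad libitum–fed mice and 10.8, 6.28, 12.1, 6.80, and 8.06 CPM in the fasted mice. The fed mice differed among themselves by up to several fold, yet the lowest of them lay far above the highest fasted mouse (log2 fold change −4.19 ± 0.34, edgeR adjusted p = 6.13e-08). Its paralog Scd1 did not pass the test (−0.41, adjusted p = 0.6). Elovl6, an elongase, was lower without overlap (log2 fold change −0.60 ± 0.12, edgeR adjusted p = 0.0011), and fatty acid synthase (Fasn, log2 fold change −0.43 ± 0.12, edgeR adjusted p = 0.0172) lost its call without AL-3, Fast-2, or Fast-4, with an adjusted p of 0.0507 to 0.0615. Acacb, the acetyl-CoA carboxylase of the mitochondrial surface whose product inhibits carnitine acyltransferase, rose instead, at 14.01, 13.6, 7.93, 7.87, and 7.06 CPM in the ad libitum–fed mice and 45.1, 53.1, 35.6, 49.97, and 78.4 CPM in the fasted mice (log2 fold change 2.37 ± 0.22, edgeR adjusted p = 4.94e-07).

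Cholesterol synthesis showed no common direction, with 3 of 25 higher and 2 lower (median, −0.03), and 7 higher and 5 lower with the replicate block. Hsd17b7, an enzyme of the later steps of the pathway, went from 24.2 ± 2.94 to 35.2 ± 3.77 CPM and was higher in every fasted mouse (log2 fold change 0.54 ± 0.11, edgeR adjusted p = 0.00114).

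Antioxidant genes split evenly, 6 higher and 6 lower of 19. Catalase (Cat), the peroxisomal enzyme that removes the hydrogen peroxide made by peroxisomal oxidation, was at 79.7, 125, 98.8, 130.5, and 122 CPM in the ad libitum–fed mice and 226, 306, 274, 336, and 246 CPM in the fasted mice (log2 fold change 1.32 ± 0.14, edgeR adjusted p = 1.59e-06). Gpx2, the glutathione peroxidase of the gut epithelium, was at 528, 351, 398, 236, and 259 CPM in the ad libitum–fed mice and 153, 98.99, 199.9, 101, and 138 CPM in the fasted mice and lower in all fasted mice (log2 fold change −1.36 ± 0.23, edgeR adjusted p = 0.00037). Glutathione S-transferases rose in 11 of 19 and fell in 0, and Gstm1 went from 20.7 ± 2.50 to 65.5 ± 25.6 CPM (log2 fold change 1.66 ± 0.21, edgeR adjusted p = 1.76e-05), although members of this family share long stretches of sequence.

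Genes of the cell cycle were lower. Of 42 genes of DNA replication and origin licensing, 26 fell and 0 rose (median log2 fold change, −0.35), against 10.4% of all genes that fell. Of 31 mitotic genes, 19 fell and 0 rose (median, −0.39), and of 25 G1 cyclins, inhibitors, and RB-E2F genes, 9 fell and 0 rose. The falls were modest in size. Pola1, the catalytic subunit of the polymerase that starts each new DNA strand (ENSMUSG00000006678, chromosome X, 93304767–93632155), was at 51.4, 56.8, 60.3, 57.6, and 64.6 CPM in the ad libitum–fed mice and 28.7, 31.9, 30.9, 31.6, and 40.3 CPM in the fasted mice. All fasted mice lay below all fed mice (log2 fold change −0.83 ± 0.10, edgeR adjusted p = 1.48e-05). Rrm2, the subunit of ribonucleotide reductase that sets the supply of deoxynucleotides, was at 52.1, 38.3, 51.1, 43.6, and 44.9 CPM in the ad libitum–fed mice and 27.6, 23.6, 28.97, 20.05, and 32.5 CPM in the fasted mice (log2 fold change −0.79 ± 0.12, edgeR adjusted p = 7.66e-05). The proliferation marker Mki67 fell without overlap but only 1.38-fold, at 860.4, 843, 865, 753, and 818 CPM in the ad libitum–fed mice and 643, 613, 547, 523, and 678 CPM in the fasted mice (log2 fold change −0.46 ± 0.09, edgeR adjusted p = 0.000866). Top2a, the topoisomerase of dividing cells, fell from 507 ± 24.2 to 329.6 ± 57.003 CPM (log2 fold change −0.62 ± 0.11, edgeR adjusted p = 0.000438).

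In G1, Ccnd1 (cyclin D1), which couples growth signals to the cycle, was at 234, 139.8, 201, 181, and 164 CPM in the ad libitum–fed mice and 119.98, 80.3, 104, 70.9, and 107 CPM in the fasted mice and lower without overlap (log2 fold change −0.93 ± 0.18, edgeR adjusted p = 0.000906). Ccnd3 fell (log2 fold change −0.46 ± 0.09, edgeR adjusted p = 0.001), whereas Ccnd2 did not pass the test (0.37, adjusted p = 0.0628, 0.00432 with the replicate block) and was higher past it without AL-1. E2f2, an activating E2F factor, fell (77.8 ± 7.68 to 47.2 ± 7.34 CPM; log2 fold change −0.72 ± 0.10, edgeR adjusted p = 5.15e-05), and so did the repressors E2f7 (−0.55) and E2f8 (−0.48) and the gatekeeper Rb1 (log2 fold change −0.50 ± 0.10, edgeR adjusted p = 0.000991). The CDK inhibitor Cdkn1b did not pass the test (0.04, adjusted p = 0.786). Nor did Cdk1 (−0.05, adjusted p = 0.778) or the minichromosome maintenance gene Mcm6 (−0.20, adjusted p = 0.141, 0.0255 with the replicate block). Without AL-1, 22 replication genes and 15 mitotic genes fell.

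The kinesin and nucleoporin families, of which only some members serve division, held more falls than rises. Of 33 kinesins tested, 10 fell, led by the mitotic motors Kif4 (log2 fold change −0.52 ± 0.09, edgeR adjusted p = 0.000286) and Kif15 (log2 fold change −0.53 ± 0.10, edgeR adjusted p = 0.000676), and 2 rose. Of 20 nucleoporins, 11 fell and 0 rose, led by Nup160 (log2 fold change −0.73 ± 0.09, edgeR adjusted p = 7.55e-06). Of 63 replication-dependent histone genes, 9 fell and 0 rose (median, −0.40), in genes whose copies share reads. The share that fell was 14.3%, against 10.4% of all genes tested and 1730 of the 13535 protein-coding genes. In 0 of the histone genes did all fasted mice lie below all fed mice, against 6.97% of all genes tested. The count that fell was unstable, at 2 to 4 without AL-1, AL-3, Fast-2, Fast-4, or Fast-5, 22 without Fast-1, and 35 with the replicate block.

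The promoter of Pola1 is shown because it carries the site of E2F, the factor family whose target genes make up much of the replication list. The 250 bases before its start in RefSeq (chrX:93632156-93632405, minus strand, build GRCm38.p6) read as follows 5′ to 3′, with a match to the E2F letters TTTGGCGC, here on the reverse strand, in capitals:
Pola1: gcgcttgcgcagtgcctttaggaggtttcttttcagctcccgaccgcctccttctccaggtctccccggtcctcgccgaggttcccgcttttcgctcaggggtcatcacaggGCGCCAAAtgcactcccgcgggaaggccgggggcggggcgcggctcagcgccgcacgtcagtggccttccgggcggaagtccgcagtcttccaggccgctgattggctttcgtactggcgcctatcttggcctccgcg
The E2F letters searched were TTTCGCGC, TTTGGCGC, and TTTCCCGC on either strand, in the 250 bases before and 50 bases after each start. They occurred in 13 of the 35 replication genes with a promoter sequence, against 1.91% of 27025 promoters. In the mitosis list, 17 of 25 promoters held the letters TTTGAA, the core of the cell cycle homology region that serves mitotic genes, against 18.1% of all promoters. A match is a description of the sequence and not a site of binding.

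Protein synthesis genes did not move in a single direction. Of 80 cytosolic ribosomal protein genes, 35 rose and 2 fell, with a median log2 fold change of 0.29, and their sum was 22018 to 27379.6 CPM in the ad libitum–fed mice and 26491 to 33355 CPM in the fasted mice. The number higher varied with the fit: it was 15 to 22 without AL-2, AL-4, AL-5, Fast-1, Fast-3, or Fast-5, 20 with Fast-5 grouped by its genotype label, and 69 with the replicate block. Of 24 translation factors, 7 were higher and 1 lower (8 and 5 with the replicate block). Their log2 fold change was above 0 in 12, with a median of −0.02. Eef2, which moves the ribosome along the message, went from 1967 ± 229 to 2788 ± 192 CPM (log2 fold change 0.50 ± 0.12, edgeR adjusted p = 0.00403), and Eif4ebp3, which binds and blocks the cap-binding factor, was at 5.28, 5.87, 5.68, 5.08, and 5.03 CPM in the ad libitum–fed mice and 8.28, 9.89, 22.02, 16.4, and 8.51 CPM in the fasted mice (log2 fold change 1.28 ± 0.23, edgeR adjusted p = 0.000599). Of 28 ribosome biogenesis genes, 2 fell (7.14%, against 10.4% of all genes tested) and 0 rose, with a median log2 fold change of −0.02. Heatr1 led the falls (log2 fold change −0.45 ± 0.11, edgeR adjusted p = 0.00592), and 1 gene was lower without Fast-2 and 6 with the replicate block. Host genes of small nucleolar RNAs rose in 6 of 15.

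Stress pathways were mostly lower. Of 13 cytosolic and mitochondrial heat shock genes, 7 fell and 0 rose. Hsp90aa1, the inducible HSP90 chaperone, was at 554, 401, 629, 402, and 516 CPM in the ad libitum–fed mice and 288, 238, 222, 186, and 252 CPM in the fasted mice, with all fasted mice below all fed mice (log2 fold change −1.08 ± 0.12, edgeR adjusted p = 5.29e-06). Its constitutive paralog Hsp90ab1 did not pass the test (−0.10, adjusted p = 0.619). Hspa4l (−0.90), Chordc1 (−0.79), Hspe1 (−0.64), and Hspd1 (−0.47) fell without overlap, and Hsph1 fell with Fast-1 inside the fed range (log2 fold change −1.76 ± 0.28, edgeR adjusted p = 0.000167). Of 20 genes of the unfolded protein response, 9 fell and 2 rose. The endoplasmic reticulum chaperones and their helpers Creld2 (log2 fold change −0.81 ± 0.16, edgeR adjusted p = 0.00155), Sdf2l1 (log2 fold change −0.87 ± 0.18, edgeR adjusted p = 0.00219), Pdia6 (log2 fold change −0.55 ± 0.13, edgeR adjusted p = 0.00433), and Hyou1 (log2 fold change −0.54 ± 0.14, edgeR adjusted p = 0.00921) were lower, whereas Herpud1, which serves the degradation of misfolded proteins, was at 74.3, 52.1, 57.1, 50.7, and 61.8 CPM in the ad libitum–fed mice and 108, 82.96, 139, 83.8, and 90.4 CPM in the fasted mice and higher in every fasted mouse (log2 fold change 0.77 ± 0.17, edgeR adjusted p = 0.00281). Proteasome subunits fell in 7 of 38 and rose in 0 (17 fell with the replicate block), among them the interferon-inducible Psmb9 and Psmb10.

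Targets of ATF4, the factor of the amino acid response, rose in 6 of 24 and fell in 0. Trib3, a pseudokinase induced when amino acids are short, was low but higher in each fasted mouse, at 0.768, 2.05, 1.12, 1.93, and 2.46 CPM in the ad libitum–fed mice and 2.84, 5.53, 4.27, 4.80, and 4.37 CPM in the fasted mice (log2 fold change 1.37 ± 0.25, edgeR adjusted p = 0.000708). Vldlr (log2 fold change 0.68 ± 0.13, edgeR adjusted p = 0.00116) and Pck2 (log2 fold change 0.41 ± 0.09, edgeR adjusted p = 0.00365) also rose, and Atf4 itself (0.15, adjusted p = 0.145), Ddit3 (−0.14, adjusted p = 0.665), and Chac1 (−0.005, adjusted p = 0.995) did not pass the test. In this list 8 of 23 promoters held the C/EBP-ATF composite letters TGATGNAA on either strand, against 4.06% of all promoters. Of 20 aminoacyl-tRNA synthetases, 2 rose and 2 fell, Dars (log2 fold change −0.39 ± 0.08, edgeR adjusted p = 0.00219) and Farsb (log2 fold change −0.39 ± 0.08, edgeR adjusted p = 0.00241) being lower. Neither rise remained past the test without AL-2, AL-4, AL-5, Fast-3, or Fast-5, and 8 fell with the replicate block.

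Genes that sense nutrients for mTORC1 and AMPK were lower in 6 of 29 and higher in 1. Sesn1, a sestrin that holds mTORC1 off, fell (69.1 ± 5.25 to 49.02 ± 4.59 CPM; log2 fold change −0.49 ± 0.10, edgeR adjusted p = 0.0017), and so did Rragd, a Rag GTPase that recruits mTORC1 to lysosomes (log2 fold change −0.35 ± 0.08, edgeR adjusted p = 0.00334). Mtor, Rptor, Tsc1, and Tsc2 did not pass the test. In the autophagy and lysosome list, 5 of 25 rose and 3 fell. The mitophagy receptor Bnip3 was at 2.11, 2.36, 2.71, 2.39, and 2.17 CPM in the ad libitum–fed mice and 3.997, 6.48, 4.99, 5.83, and 5.04 CPM in the fasted mice (log2 fold change 1.17 ± 0.18, edgeR adjusted p = 0.000108), the cargo receptor Sqstm1 rose by 0.38 ± 0.09, Trp53inp2 fell (log2 fold change −0.89 ± 0.14, edgeR adjusted p = 0.000156), and Map1lc3b, Ulk1, and Tfeb did not pass the test. The mitochondrial enzyme Arg2, which breaks down arginine, rose (log2 fold change 0.77 ± 0.12, edgeR adjusted p = 0.000128) in a list of arginine, glutamine, and polyamine enzymes with 2 of 17 higher and 2 lower (3 and 4 with the replicate block). In the same list Cps1, the first enzyme of citrulline synthesis, went from 2284 ± 303 to 1496 ± 287 CPM (log2 fold change −0.61 ± 0.14, edgeR adjusted p = 0.00333).

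Glucocorticoid target genes were higher. Of 15 tested, 8 rose and 0 fell. Zbtb16, a transcriptional repressor, was nearly absent from fed crypts, at 0.336, 0.445, 0.198, 0.457, and 0.387 CPM in the ad libitum–fed mice and 6.66, 14.5, 27.5, 13.8, and 6.61 CPM in the fasted mice (log2 fold change 5.19 ± 0.67, edgeR adjusted p = 2.11e-05). Fkbp5, a co-chaperone that curbs the receptor, was at 20.2, 13.4, 25.8, 16.6, and 18.4 CPM in the ad libitum–fed mice and 65.1, 66.3, 179, 106, and 66.1 CPM in the fasted mice (log2 fold change 2.36 ± 0.29, edgeR adjusted p = 1.16e-05). Sgk1, a kinase under both glucocorticoids and insulin, was at 7.58, 12.7, 11.6, 23.04, and 12.9 CPM in the ad libitum–fed mice and 40.96, 75.5, 269, 109.9, and 61.6 CPM in the fasted mice (log2 fold change 3.04 ± 0.45, edgeR adjusted p = 8.07e-05). In all 3 genes Fast-3 was the highest mouse and the groups did not overlap. Tsc22d3 (GILZ) rose by 0.58 ± 0.10. Per1 was also higher in each fasted mouse (12.3 ± 2.95 to 31.4 ± 21.004 CPM; log2 fold change 1.36 ± 0.31, edgeR adjusted p = 0.00342), by 0.85 on the log2 scale without Fast-3, while the receptor gene Nr3c1 (−0.02, adjusted p = 0.902), Dusp1 (−0.04, adjusted p = 0.944), and Nfkbia (0.10, adjusted p = 0.841) did not pass the test.

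The list for insulin, IGF, and FOXO signaling rose in 8 of 21 and fell in 0. Klf15, a fasting-induced factor of amino acid breakdown, was at 3.60, 2.76, 4.10, 3.40, and 4.16 CPM in the ad libitum–fed mice and 7.47, 6.55, 17.03, 9.25, and 8.29 CPM in the fasted mice (log2 fold change 1.44 ± 0.24, edgeR adjusted p = 0.000313), and Cited2 rose by 0.71 ± 0.12. Foxo1 (0.15, adjusted p = 0.0992), Foxo3 (0.17, adjusted p = 0.148), and Txnip (0.39, adjusted p = 0.225) did not pass the test.

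Clock genes were higher, 10 of 18, with 0 lower. Tef, Dbp, and Hlf, the PAR bZIP factors that drive clock output through D-boxes, rose. Tef was at 9.45, 9.52, 7.93, 8.63, and 9.38 CPM in the ad libitum–fed mice and 37.9, 49.7, 35.8, 39.2, and 29.1 CPM in the fasted mice, with each group narrow and far from the other (log2 fold change 2.09 ± 0.12, edgeR adjusted p = 1.52e-09). Dbp was at 0.960, 1.16, 1.59, 1.32, and 1.21 CPM in the ad libitum–fed mice and 3.01, 10.03, 6.17, 7.14, and 3.47 CPM in the fasted mice (log2 fold change 2.26 ± 0.27, edgeR adjusted p = 8.65e-06). Per3 was at 8.30, 8.36, 8.19, 9.14, and 7.97 CPM in the ad libitum–fed mice and 17.4, 24.8, 14.5, 15.6, and 11.8 CPM in the fasted mice (log2 fold change 1.000 ± 0.16, edgeR adjusted p = 0.000174), and Cry2 (log2 fold change 1.15 ± 0.20, edgeR adjusted p = 0.000423), Nr1d1 (log2 fold change 1.11 ± 0.25, edgeR adjusted p = 0.00391), and Nr1d2 (log2 fold change 0.62 ± 0.13, edgeR adjusted p = 0.00233) rose as well. The activators Arntl (BMAL1, −0.21, adjusted p = 0.0949, 0.0423 with the replicate block) and Clock (0.06, adjusted p = 0.696), and Per2 (0.08, adjusted p = 0.846) and Cry1 (0.04, adjusted p = 0.918), did not pass the test. Since the hour at which the fed mice were killed is not given, the diet and the time of day cannot be told apart here.

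Promoters of Tef and Per3 are shown because they hold the letters of the E-box and the D-box, through which clock factors act. The 250 bases before the start of Tef (chr15:81802423-81802672, plus strand) hold the E-box CACGTG, and those before Per3 (chr4:151044666-151044915, minus strand) hold the D-box core TTATGTAA at 2 places, each in capitals and 5′ to 3′ (RefSeq, GRCm38.p6):
Tef: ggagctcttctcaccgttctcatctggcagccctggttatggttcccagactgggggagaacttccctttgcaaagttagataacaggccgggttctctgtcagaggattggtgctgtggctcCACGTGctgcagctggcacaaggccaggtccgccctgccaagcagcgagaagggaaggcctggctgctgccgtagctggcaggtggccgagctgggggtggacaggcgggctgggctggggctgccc
Per3: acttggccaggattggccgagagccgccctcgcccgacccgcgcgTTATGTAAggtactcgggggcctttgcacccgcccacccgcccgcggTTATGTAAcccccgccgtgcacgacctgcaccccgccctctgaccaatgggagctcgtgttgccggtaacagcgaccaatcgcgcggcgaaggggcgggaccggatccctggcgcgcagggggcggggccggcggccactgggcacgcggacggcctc
Over 27025 promoters, 7.24% held CACGTG and 0.955% held TTATGTAA on either strand. Of the 16 clock genes with a promoter sequence, 5 held the E-box and 1 held the D-box.

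Metal handling changed in a few genes, some of them strongly. Metallothioneins bind zinc and copper and respond to zinc, glucocorticoids, and oxidants. Mt2 (ENSMUSG00000031762, chromosome 8, 94172664–94173568) was at 0.480, 4.09, 2.64, 2.99, and 1.06 CPM in the ad libitum–fed mice and 128, 165, 156, 142, and 95.7 CPM in the fasted mice and Mt1 at 9.26, 18.6, 20.3, 18.2, and 10.3 CPM in the ad libitum–fed mice and 136, 172, 198, 194, and 95.9 CPM in the fasted mice. For both, the lowest fasted mouse lay several fold above the highest fed mouse (Mt2, log2 fold change 5.93 ± 0.39, edgeR adjusted p = 5.29e-09; Mt1, log2 fold change 3.38 ± 0.25, edgeR adjusted p = 2.47e-08). Slc39a4 (ZIP4), the importer of dietary zinc, was at 96.2, 90.2, 96.5, 94.04, and 104 CPM in the ad libitum–fed mice and 43.6, 37.8, 41.2, 37.5, and 40.4 CPM in the fasted mice and lower in every fasted mouse (log2 fold change −1.26 ± 0.14, edgeR adjusted p = 2.91e-06). Slc40a1 (ferroportin), the exporter of iron, was at 11.7, 16.2, 12.5, 17.3, and 11.02 CPM in the ad libitum–fed mice and 3.997, 3.48, 1.75, 2.80, and 3.81 CPM in the fasted mice and lower as well (log2 fold change −2.12 ± 0.22, edgeR adjusted p = 1.54e-06). The transferrin receptor Tfrc (−0.11, adjusted p = 0.782) did not pass the test. In all, 5 of 15 iron and zinc genes rose and 2 fell. The promoter of Mt2 is shown because this gene had among the largest rises. The 250 bases before its start (chr8:94172368-94172617, plus strand, RefSeq, GRCm38.p6) hold the antioxidant response element core TGACNNNGC, found in 12.5% of all promoters, in capitals:
Mt2: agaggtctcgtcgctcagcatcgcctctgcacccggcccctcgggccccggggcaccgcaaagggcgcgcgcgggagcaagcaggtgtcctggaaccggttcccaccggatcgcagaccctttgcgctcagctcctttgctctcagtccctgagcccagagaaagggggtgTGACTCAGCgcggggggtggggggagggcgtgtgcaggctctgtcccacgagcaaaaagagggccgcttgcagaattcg

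Genes for nutrient absorption were higher. Of 274 solute carriers tested, 89 rose and 22 fell. Among amino acid and peptide transporters, 10 of 26 rose and 0 fell. Slc6a19 (B0AT1), the main importer of neutral amino acids, was at 73.02, 138, 112, 188, and 131 CPM in the ad libitum–fed mice and 177, 379, 677, 511, and 234 CPM in the fasted mice, and the groups met only at AL-4 and Fast-1 (log2 fold change 1.62 ± 0.29, edgeR adjusted p = 0.000567). The peptide transporter Slc15a1 (PEPT1) went from 192 ± 49.5 to 415 ± 191 CPM (log2 fold change 1.11 ± 0.26, edgeR adjusted p = 0.00431), and Slc7a5 (0.45, adjusted p = 0.24) and Slc1a5 (0.08, adjusted p = 0.645), carriers of dividing cells, did not pass the test. The number of amino acid and peptide transporters higher was 7 without AL-1 and 6 without Fast-4. Of 15 genes of sugar digestion, transport, and fructose use, 8 rose and 0 fell, including the fructose transporter Slc2a5 (GLUT5, log2 fold change 1.24 ± 0.18, edgeR adjusted p = 7.6e-05) and ketohexokinase (Khk, log2 fold change 0.94 ± 0.14, edgeR adjusted p = 7.26e-05). The number of sugar genes higher was 5 without AL-1, Fast-2, Fast-3, or Fast-4, and 14 with the replicate block.

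Fat absorption rose most broadly, in 15 of 20 genes with 0 lower. Fabp1 was at 107, 228, 221, 303, and 225 CPM in the ad libitum–fed mice and 623, 915, 824, 1214, and 1038 CPM in the fasted mice (log2 fold change 2.09 ± 0.23, edgeR adjusted p = 3.8e-06). Mttp, which loads lipid onto apolipoprotein B, went from 959 ± 192 to 1961 ± 363 CPM (log2 fold change 1.03 ± 0.16, edgeR adjusted p = 0.000147), Apoa1 from 951 ± 289.9 to 2495 ± 1189 CPM (log2 fold change 1.39 ± 0.28, edgeR adjusted p = 0.00159), and Dgat2, which makes triacylglycerol, rose by 1.26 ± 0.22. Npc1l1, the cholesterol importer, did not pass the test (0.01, adjusted p = 0.98). Bile acid genes rose in 4 of 7, among them the bile acid receptor Nr1h4 (FXR, log2 fold change 0.73 ± 0.13, edgeR adjusted p = 0.000356) and the ileal importer Slc10a2, which is low in these crypts (1.01 ± 0.224 to 4.04 ± 1.90 CPM; log2 fold change 1.99 ± 0.50, edgeR adjusted p = 0.0069). These genes are those of enterocytes, whose markers summed to 6755 to 13632 CPM in the ad libitum–fed mice and 13884 to 26808 CPM in the fasted mice. In the ratio to that sum, all 5 fasted mice lay above the fed mice in 0 amino acid transporter, 0 sugar, and 3 fat absorption genes, against 2, 4, and 8 in CPM. They lay below in 6, 4, and 4 of these genes in the ratio, against 0 in CPM. These are 23.1%, 26.7%, and 20% of the lists, under the 36.1% of all genes tested that lay below in the ratio. In CPM, 7.69% of the amino acid and peptide transporters lay above, near the 7.63% of all genes tested. The part of the enterocyte markers in these results was not tested.

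**Figure D4:**
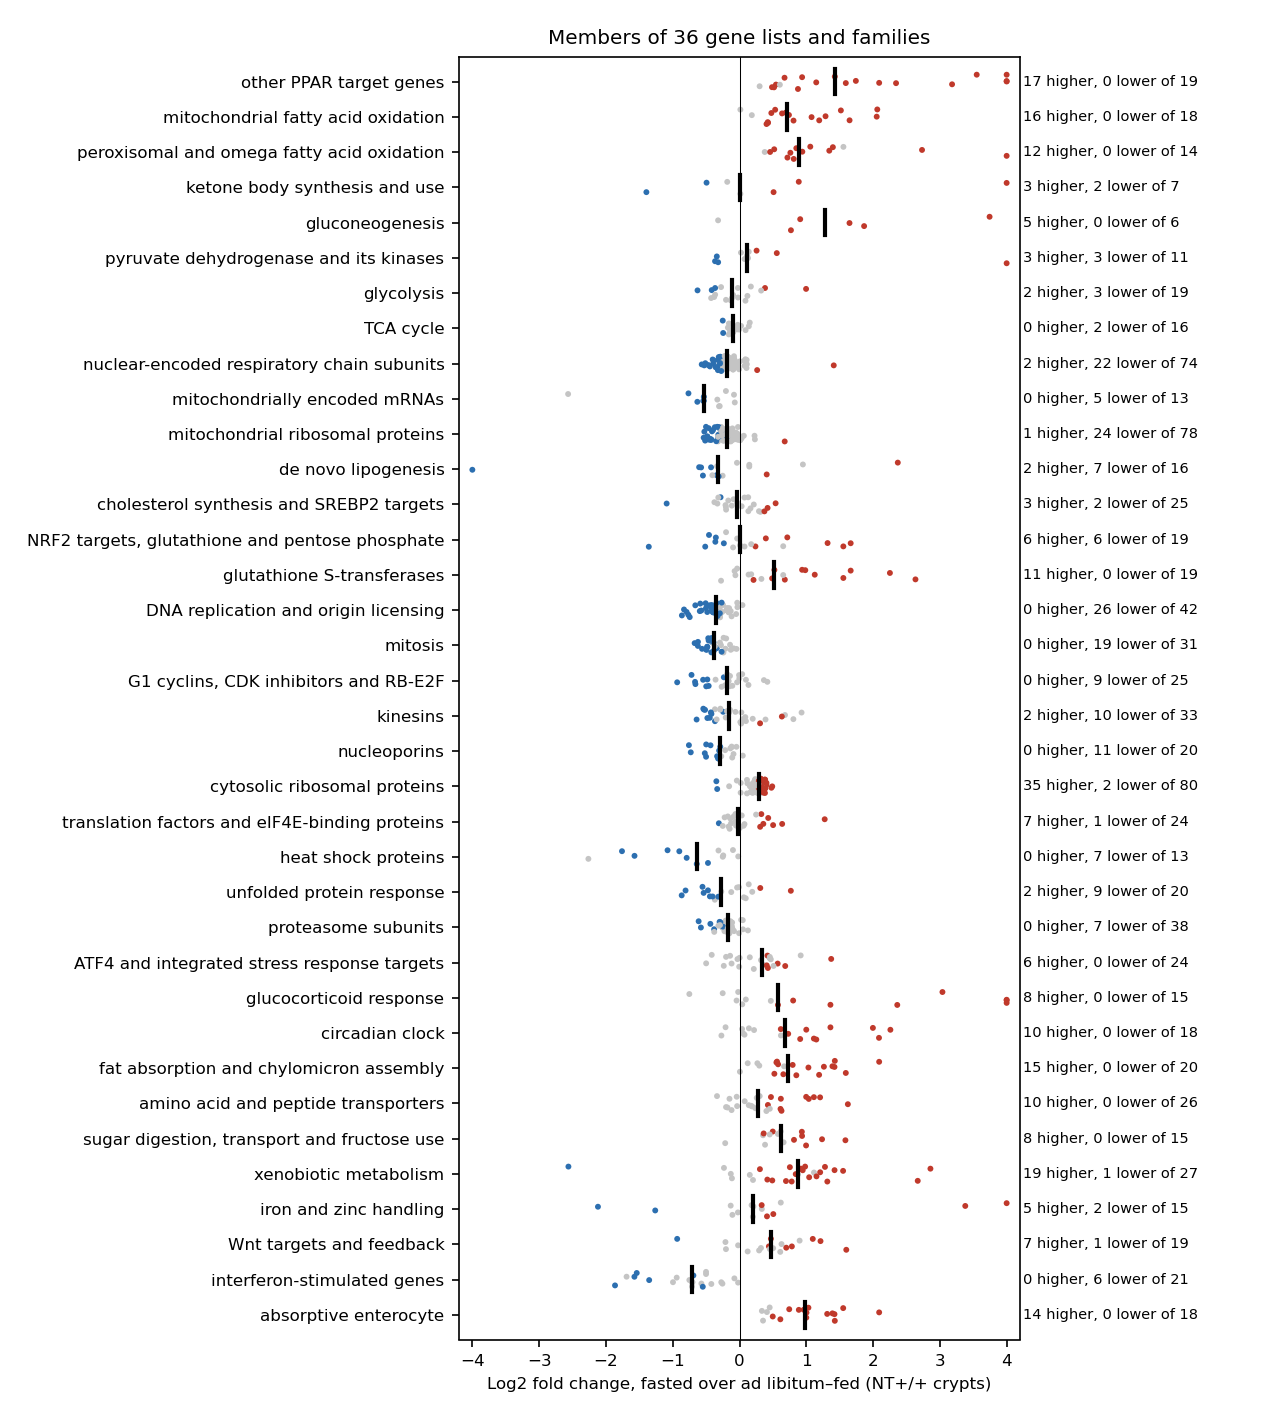
Log2 fold change (horizontal axis, fasted over ad libitum–fed NT+/+ crypts) of each tested member of 36 gene lists and families, with members that rose in red, members that fell in blue, members that did not pass an adjusted p of 0.05 in grey, and a black bar at each median. Beside each row stand the numbers higher and lower of those tested. Values beyond ±4 are drawn at the edge. Fatty acid oxidation and PPAR target rows lie almost wholly to the right and the DNA replication, mitosis, and heat shock rows to the left of 0.

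Xenobiotic metabolism rose in 19 of 27 genes and fell in 1. Por, the reductase that supplies electrons to all microsomal cytochromes P450, was at 58.7, 51.1, 51.7, 53.3, and 58.6 CPM in the ad libitum–fed mice and 142, 163, 181, 159, and 157 CPM in the fasted mice, with narrow groups (log2 fold change 1.55 ± 0.09, edgeR adjusted p = 1.74e-09). Cyp3a11, a main drug-metabolizing P450, was at 14.8, 61.6, 48.4, 72.3, and 115 CPM in the ad libitum–fed mice and 108, 278, 988, 683, and 211 CPM in the fasted mice. The fasted mice spread widely, and Fast-1 lay within the fed range (log2 fold change 2.86 ± 0.57, edgeR adjusted p = 0.00129). Ugt1a1, the glucuronosyltransferase of bilirubin, went from 171 ± 23.2 to 425 ± 24.7 CPM (log2 fold change 1.31 ± 0.13, edgeR adjusted p = 1.31e-06), and the receptor gene Nr1i3 (CAR) from 29.3 ± 7.47 to 67.6 ± 19.6 CPM (log2 fold change 1.21 ± 0.20, edgeR adjusted p = 0.00025). Over whole families, 20 of 42 cytochromes P450 rose and 3 fell, 8 of 13 UDP-glucuronosyltransferases rose and 0 fell, and 10 of 33 ABC transporters rose and 2 fell. Without Fast-4, 12 cytochromes P450 rose. In CPM, 13 xenobiotic genes had all fasted mice above all fed mice, and 1 had in the ratio to the enterocyte sum. In that ratio 3 had them below (11.1%, against 36.1% of all genes tested).

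Retinoid genes rose in 6 of 11 and fell in 2, by role. Aldh1a1, which makes retinoic acid, was at 10.6, 42.97, 31.8, 65.7, and 73.9 CPM in the ad libitum–fed mice and 174, 222, 223, 204, and 166 CPM in the fasted mice (log2 fold change 2.14 ± 0.37, edgeR adjusted p = 0.000458). Adh1 and Rdh7, which oxidize retinol, rose by 1.56 ± 0.16 and 1.90 ± 0.27. Bco1, which cleaves dietary beta-carotene, was at 5.66, 8.18, 3.37, 9.54, and 4.49 CPM in the ad libitum–fed mice and 1.51, 1.30, 1.59, 0.857, and 1.68 CPM in the fasted mice and lower in all fasted mice (log2 fold change −2.17 ± 0.30, edgeR adjusted p = 4.78e-05). Here the ratio to the enterocyte sum kept 4 of the 5 genes whose fasted mice lay above all fed mice in CPM. In the ratio, 2 genes had the fasted mice below (18.2%, against 36.1% of all genes tested), and 1 had in CPM.

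Ion and water transport rose in 8 of 26 and fell in 3. Aqp1, a water channel, was at 93.6, 86.6, 106, 102, and 108 CPM in the ad libitum–fed mice and 244, 214, 293, 251, and 235 CPM in the fasted mice (log2 fold change 1.32 ± 0.14, edgeR adjusted p = 1.54e-06). Slc26a3, the chloride-bicarbonate exchanger of absorptive cells, rose (log2 fold change 0.84 ± 0.12, edgeR adjusted p = 8.39e-05), as did Guca2b (uroguanylin, log2 fold change 1.34 ± 0.22, edgeR adjusted p = 0.000298) and its receptor Gucy2c (log2 fold change 0.39 ± 0.07, edgeR adjusted p = 0.000507). Kcne3, a potassium channel subunit needed for chloride secretion, was at 116, 62.9, 79.9, 83.1, and 76.9 CPM in the ad libitum–fed mice and 42.1, 23.1, 42.8, 36.04, and 44.1 CPM in the fasted mice and lower without overlap (log2 fold change −1.15 ± 0.17, edgeR adjusted p = 6.41e-05).

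Wnt target and feedback genes, which mark signaling at the crypt base, rose in 7 of 19 and fell in 1. Nkd1, a negative feedback gene, was at 5.997, 5.29, 7.33, 5.33, and 7.30 CPM in the ad libitum–fed mice and 17.3, 12.01, 10.4, 12.5, and 20.2 CPM in the fasted mice (log2 fold change 1.21 ± 0.20, edgeR adjusted p = 0.000222). Tcf7 went from 9.18 ± 1.35 to 14.9 ± 1.05 CPM (log2 fold change 0.70 ± 0.11, edgeR adjusted p = 0.00013), Sp5 from 4.59 ± 0.678 to 7.89 ± 1.61 CPM (log2 fold change 0.78 ± 0.15, edgeR adjusted p = 0.00125), and Rnf43, which removes Wnt receptors, from 81.4 ± 5.67 to 113 ± 18.03 CPM (log2 fold change 0.47 ± 0.11, edgeR adjusted p = 0.00392). The exception among called members was Ccnd1, described above, and Axin2, the standard feedback gene, did not pass the test (0.12, adjusted p = 0.676). Of 15 Notch pathway genes, 2 rose and 1 fell, with Numb, which restrains Notch, higher (log2 fold change 0.46 ± 0.08, edgeR adjusted p = 0.000468) and the lineage genes Hes1 (−0.16, adjusted p = 0.611) and Atoh1 (−0.09, adjusted p = 0.854) not past the test. BMP signaling genes rose in 3 of 16 and fell in 1, the antagonist Chrd rising from 0.303 ± 0.0971 to 1.11 ± 0.316 CPM (log2 fold change 1.85 ± 0.33, edgeR adjusted p = 0.000496). Only 2 rose and none fell without AL-1 or AL-2, and 1 rose without Fast-4.

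Of 13 EGF ligands, ErbB receptors, and their regulators, 3 rose and 1 fell. Egfr, the main receptor, was at 61.6, 62.3, 59.8, 57.6, and 75.9 CPM in the ad libitum–fed mice and 42.5, 44.6, 46.9, 43.4, and 47.3 CPM in the fasted mice and lower in each fasted mouse (log2 fold change −0.50 ± 0.08, edgeR adjusted p = 0.000169). Lrig3, a receptor regulator, was at 62.1, 59.2, 61.6, 56.2, and 56.4 CPM in the ad libitum–fed mice and 92.3, 82.7, 91.6, 88.6, and 79.7 CPM in the fasted mice and higher in each fasted mouse (log2 fold change 0.56 ± 0.06, edgeR adjusted p = 2.26e-06). Lrig1 (−0.04, adjusted p = 0.846), Erbb2 (0.05, adjusted p = 0.706), and the ligand Areg (0.47, adjusted p = 0.403) did not pass the test. The count was 1 higher and 1 lower without AL-1 or without AL-4. Among intestinal transcription factors 6 of 24 rose and 0 fell (8 and 2 with the replicate block). Creb3l3, a membrane-bound factor of lipid metabolism, went from 66.1 ± 16.3 to 221 ± 51.8 CPM (log2 fold change 1.74 ± 0.19, edgeR adjusted p = 3.41e-06), Gata6 rose by 0.45 ± 0.07, and Hnf4a (−0.21, adjusted p = 0.155, 0.0495 with the replicate block) did not pass the test. Cdx2, a factor of intestinal identity, did not pass it either (0.28, adjusted p = 0.0832, 0.00445 with the replicate block) and was higher past it without AL-1.

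Among the lists of defense genes, that of gasdermin C and the type 2 response fell in most of its members, and the fed mice differed widely among themselves. Of 10 gasdermin C and type 2 response genes tested, 7 fell and 0 rose. Gsdmc4, an epithelial pore-forming protein induced by type 2 cytokines (ENSMUSG00000055748, chromosome 15, 63891264–63912297), was at 2151, 737, 292, 176, and 127 CPM in the ad libitum–fed mice and 24.9, 9.35, 5.04, 2.57, and 5.60 CPM in the fasted mice. AL-1 was the highest by far, and AL-5, the lowest fed mouse, still lay above all fasted mice (log2 fold change −6.20 ± 0.95, edgeR adjusted p = 0.000126). Pla2g4c, a phospholipase, was at 1612, 472, 36.6, 14.3, and 6.19 CPM in the ad libitum–fed mice and 1.62, 0.750, 0.772, 0.457, and 0.504 CPM in the fasted mice, with AL-1 and AL-2 far above the other fed mice (log2 fold change −9.02 ± 1.65, edgeR adjusted p = 0.000664), and limma-voom did not call it (adjusted p = 0.181). Gsdmc2 and Gsdmc3 followed the same order of mice, and reads of these neighbouring copies can be divided only by RSEM's model. Without AL-1 the median of the list went from −2.97 to −1.83. The tuft cell markers, which belong to the cells that start type 2 responses, were also highest in AL-1 and Fast-1, at 558 and 462 CPM, and their part in this result was not tested.

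Duox2, the epithelial oxidase that responds to microbes, was at 795, 475, 374, 209, and 210.3 CPM in the ad libitum–fed mice and 57.2, 41.003, 67.7, 22.2, and 47.9 CPM in the fasted mice, again with AL-1 the highest and without overlap (log2 fold change −3.13 ± 0.50, edgeR adjusted p = 0.000191). Its maturation factor Duoxa2 went from 34.99 ± 28.04 to 4.57 ± 2.27 CPM (log2 fold change −2.93 ± 0.54, edgeR adjusted p = 0.000708). Of 17 antimicrobial and microbiota-responsive genes, 5 fell and 1 rose (the lectin gene Reg3a, log2 fold change 0.93 ± 0.24, edgeR adjusted p = 0.00938), and Nos2 (−0.23, adjusted p = 0.847) did not pass the test.

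Interferon-stimulated genes fell in 6 of 21 and rose in 0, with a median log2 fold change of −0.70, and 10 fell with the replicate block. Zbp1, a sensor of nucleic acids, was at 18.3, 16.8, 16.98, 20.3, and 10.3 CPM in the ad libitum–fed mice and 5.27, 6.75, 6.07, 5.71, and 3.98 CPM in the fasted mice (log2 fold change −1.57 ± 0.30, edgeR adjusted p = 0.000859). All fasted mice lay below all fed mice. Mx1 (log2 fold change −1.54 ± 0.28, edgeR adjusted p = 0.000558) and Irf1 (log2 fold change −0.55 ± 0.14, edgeR adjusted p = 0.00652) also fell, and Isg15 (−0.71, adjusted p = 0.245), Ifit1 (−0.57, adjusted p = 0.379), and Irf7 (−0.02, adjusted p = 0.958) did not pass the test. Of 15 MHC class I and immunoproteasome genes, 2 fell and 0 rose (5 and 2 with the replicate block), and of 9 MHC class II genes none passed the test.

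The fasting effect was then compared between the sexes and between the genotypes. In the NT+/+ mice, with 3 females and 2 males per diet, the difference of the fasting effect between sexes passed edgeR's adjusted p of 0.05 in 0 of 16668 genes, with 234 at an unadjusted p under 0.05, and DESeq2 called 9. The difference between NT+/+ and NT-/- mice passed it in 0 of 17875 genes, with 485 at an unadjusted p under 0.05, and DESeq2 called 0. Both unadjusted counts were below 0.05 of the genes tested, the share expected with no difference at all. They therefore show no excess, and the tests may be conservative. Of the 53 genes given above with a value for each mouse, 53 had a log2 fold change of the same sign in the NT-/- mice, which shared only the estimate of the spread with the NT+/+ contrast, and 52 also passed an adjusted p of 0.05 there. These genes were largely chosen for their values in the NT+/+ mice. The same shares over all genes tested were not computed, so the counts do not set these genes apart from others. For Tef the log2 fold change was 2.41 in NT-/- mice, for Scd2 −4.59, and for Duox2 −3.75. A difference that misses the test does not show that the effects are equal, and with these group sizes small differences could not be told from the spread between mice.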

How the data were processed

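RNA of crypts from 19 mice, 1 library per mouse, was measured by single-end sequencing after depletion of ribosomal RNA. Per the labels and the study's methods, the authors trimmed reads with Trimmomatic 0.39 and estimated genes with RSEM against the Ensembl GRCm38 transcripts (release 100). The deposited files hold RSEM expected counts, in which reads shared by several genes are divided by a model, with TPM and effective lengths, and the strand setting and filters are not given in the sources used here. Nothing in the labels ties a replicate number to a litter or day.

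Mice were grouped by title. Expected counts were rounded to whole numbers and fitted in edgeR 4.0.16 (R 4.3.3) with filterByExpr, TMM scaling, 1 coefficient for each of the 4 groups over 19 mice, and the quasi-likelihood test of fasted against ad libitum–fed NT+/+ mice, with Benjamini-Hochberg adjustment over 17875 genes and a threshold of 0.05. Standard errors were taken from the ratio of each log2 fold change to the root of its F value. CPM used TMM library sizes, and TPM is the deposited value. Some genes are not reported here. The biological coefficient of variation was 18.9%, and total counts of 14588953 to 24048202 set the precision. Of 55487 gene IDs, 55227 matched GENCODE M21, which gave symbols and GRCm38 coordinates. Promoters were read from RefSeq (GRCm38.p6), for 804 of 1063 genes in the lists. The fit was tested on simulated counts. Python 3.11.15, numpy 2.4.6, pandas 2.3.3, scipy 1.17.1, and matplotlib 3.10.9 were used for the rest.

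The members, 62 gene lists, and gene families were chosen with earlier results of these data known, so lists are given as counts and medians beside all genes, with no test over a list. Genes were named by a rule (the 10 largest changes in each direction, the 2 smallest p in each list or family, preset anchor genes of each list, and the 5 most abundant called genes in each direction), and the other genes named were chosen after their values were seen, as were the ratio to the enterocyte sum and the alternative without ribosomal RNA genes. Same-numbered mice deviated together: the correlation of their deviations from the group means was 0.165 to 0.499 in 5 of 5 pairs (mean, 0.270). Over 20 different-numbered pairs it was −0.325 to 0.204 (mean, −0.066), so the ranges overlapped. The replicate number was taken to pair the mice, from the data and not from the labels. Fits with the replicate number as a block, named the replicate block above, used the NT+/+ mice. Alternatives were other filters and scalings, DESeq2 1.42.0, limma-voom (limma 3.58.1), the likelihood ratio test, sex as a covariate, NT+/+ mice alone, Fast-5 grouped by its genotype label, and each mouse left out in turn.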

Additional observations from a re-analysis of the deposited data

Results flagged for a closer look

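In a group of 5 mice, a value was singled out when its gap to the nearest mouse took more than 0.71 of the group's range, which chance gives in about 1 in 20 groups. Of 114 groups checked, 9 held such a value. The share of counts on ribosomal RNA genes was 13.1% in AL-1, against a median of 0.701% in the other fed mice, and 2.10% in Fast-2, against 0.543% in the other fasted mice. Among ad libitum–fed mice, Acot1 was highest in AL-2 (4.67 CPM, median of the others 2.15 CPM), Cyp4a10 in AL-4 (0.508 CPM, 0.0572 CPM), and Egfr in AL-5 (75.9 CPM, 60.7 CPM). Among fasted mice, Klf15 was highest in Fast-3 (17.0 CPM, median of the others 7.88 CPM), Pla2g4c in Fast-1 (1.62 CPM, 0.627 CPM), Pola1 in Fast-5 (40.3 CPM, 31.3 CPM), and Ppard in Fast-3 (121 CPM, 77.6 CPM). None of these gene levels lay inside the range of the other diet group.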

How the results depend on the processing

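The count of 3862 genes stayed within 1.5 times under each alternative run, from 3022 without Fast-4 to 5426 with the replicate block in NT+/+ mice, where 3663 of the 3862 genes were called. It was 3077 without a filter on low counts, 4165 with DESeq2, 3891 with limma-voom, 3361 with NT+/+ mice alone, 3252 with sex as a covariate, and 3814 without ribosomal RNA genes. Leaving out 1 mouse gave 3022 to 3973. The share of called genes that rose was 48.8% to 55.5%. Of 187 called genes named in the text, 182 kept their call under each alternative that tested them, and no fold change of a named gene called under either fit reversed. The filter of at least 10 counts in every NT+/+ mouse tested 179 of the 187 called genes. The replicate block in NT+/+ mice ended none of the 186 of these calls it tested and added 9, given beside the genes. Medians moved by more than the spread over pairs in 32 of 1886 comparisons over 82 lists and families. The number of AMPK and mTORC1 genes called fell to 4, all lower, without a filter on low counts or with sex as a covariate. With NT+/+ mice alone, 6 amino acid transporters, 5 sugar genes, and 13 cytochromes P450 rose. Ribosomal protein genes higher numbered 19 without a filter on low counts and 55 with upper quartile scaling, against 35, proteasome subunits lower numbered 11 with upper quartile or total count scaling, against 7, and histone genes lower numbered 4 or 5 with NT+/+ mice alone, sex as a covariate, Fast-5 grouped by its genotype label, or ribosomal RNA genes removed, against 9. The difference of the fasting effect between sexes was called in 9 genes by DESeq2 and in 0 to 1 with 1 mouse left out, the 1 being without AL-1, and that between genotypes in 0 under each alternative run. Counts at low levels limit genes under about 1 CPM, where fold changes depend on few reads.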

Other observations

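Genes outside the lists, picked after their values were seen, also changed. The changes given here were smaller than the largest inside the lists. Retsat, which saturates retinol and is a PPAR target in fat cells, went from 47.3 ± 3.35 to 241 ± 38.8 CPM (log2 fold change 2.35 ± 0.14, edgeR adjusted p = 1.52e-09), and Hsd17b13, a lipid droplet enzyme, from 8.71 ± 1.80 to 52.3 ± 9.78 CPM (log2 fold change 2.58 ± 0.19, edgeR adjusted p = 1.85e-08). Cirbp, an RNA-binding protein induced by mild cold, rose from 17.1 ± 2.32 to 56.01 ± 6.55 CPM (log2 fold change 1.72 ± 0.10, edgeR adjusted p = 1.74e-09). Ndrg1, a stress-responsive gene of differentiated epithelium, rose from 65.5 ± 6.79 to 213 ± 31.5 CPM (log2 fold change 1.71 ± 0.12, edgeR adjusted p = 9.79e-09), and Lamb3, a chain of the basement membrane protein laminin 332, from 11.5 ± 2.04 to 51.7 ± 8.32 CPM (log2 fold change 2.17 ± 0.16, edgeR adjusted p = 2.04e-08). Sod1, the cytosolic superoxide dismutase, rose in close groups from 156 ± 8.02 to 283 ± 6.09 CPM (log2 fold change 0.86 ± 0.07, edgeR adjusted p = 3.87e-08). Hdc, which makes histamine, went from 0.768 ± 0.381 to 4.66 ± 1.19 CPM (log2 fold change 2.57 ± 0.33, edgeR adjusted p = 1.76e-05), at a low level. For each of these genes the fasted mice lay above all fed mice.

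Among genes that fell, several act in the DNA damage response: Atm (log2 fold change −0.68 ± 0.09, edgeR adjusted p = 1.77e-05), Chek2 (log2 fold change −0.67 ± 0.09, edgeR adjusted p = 5.25e-05), Rad54l (log2 fold change −0.75 ± 0.09, edgeR adjusted p = 9.13e-06), and Brip1 (log2 fold change −0.73 ± 0.10, edgeR adjusted p = 4.53e-05). Top1, which relaxes DNA, went from 154 ± 7.74 to 97.2 ± 7.38 CPM (log2 fold change −0.66 ± 0.07, edgeR adjusted p = 3.06e-06). Sensors and signaling genes of immunity also fell, with Tlr1 going from 11.4 ± 1.02 to 3.06 ± 0.802 CPM (log2 fold change −1.89 ± 0.20, edgeR adjusted p = 2.21e-06), Batf2 going from 17.2 ± 2.40 to 5.81 ± 1.002 CPM (log2 fold change −1.56 ± 0.16, edgeR adjusted p = 1.73e-06), and Syk going from 37.4 ± 6.46 to 16.1 ± 3.36 CPM (log2 fold change −1.21 ± 0.14, edgeR adjusted p = 7.93e-06). In the fatty alcohol and ether lipid pathway, which starts in peroxisomes, Far1 went from 12.5 ± 1.32 to 5.26 ± 0.640 CPM (log2 fold change −1.24 ± 0.13, edgeR adjusted p = 1.73e-06) and Agps from 57.7 ± 1.54 to 37.3 ± 3.02 CPM (log2 fold change −0.63 ± 0.08, edgeR adjusted p = 1.12e-05), while the peroxisomal oxidation genes described above rose. Rbp7, a retinol-binding protein, fell from 12.8 ± 0.556 to 3.49 ± 0.322 CPM (log2 fold change −1.87 ± 0.15, edgeR adjusted p = 3.87e-08). In all of them the fasted mice lay below all fed mice.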
